A study of Mus musculus with 12 samples.

Results

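Endothelial cells line the blood vessels of the brain, and red cells carry haemoglobin through them. The genes described here are 8 vascular genes (Cldn5, Pecam1, Tek, Tie1, Flt1, Kdr, Cdh5 and Vwf) and the α-globin gene Hba-a1. Members were the probe sets whose platform annotation gave exactly 1 symbol and that symbol was in this list. That rule found 12 probe sets of 9 genes, out of 12422 tested probe sets and 8251 genes with a symbol of their own. Of these, 11 were vascular and 1 was for Hba-a1. No filter on level was applied, so all 12 were tested.

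RNA came from mouse hippocampi, on 12 Affymetrix arrays in 4 groups of 3. Control mice, and mutants without the activity-dependent transcription factors CREB and CREM per the series title, were injected intraperitoneally with saline or with the convulsant kainate at 20 mg/kg, which acts on glutamate receptors. Littermates of both sexes, 5 to 6 weeks old, had been caged singly and handled for 5 days, and were killed after 1 hour. How CREB and CREM were removed, in which cells and on what strain is not given in the labels. Pools of 3 animals were hybridised, so a group rests on 9 animals and the pool is the unit of replication.

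Brain endothelium is sealed by tight junctions, the basis of the blood-brain barrier, and by adherens junctions between neighbouring cells. Its growth and stability are controlled by vascular endothelial growth factors (VEGF), which act on receptor tyrosine kinases such as Kdr and Flt1, and by angiopoietins, which act on Tek. Haemoglobin transcripts in a brain sample belong mostly to immature red cells in the blood left in its vessels, although neurons and glia can also express them. The labels state neither that blood was flushed from the tissue nor that it was not. In whole tissue, fewer cells of a type and less RNA per cell cannot be told apart.

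Values are on the log2 scale, so a difference of 1 is a doubling. Percentiles and ranks of mean level describe the signal of probe sets, which bind with different strength, and do not compare the amounts of their transcripts. The control kainate replicate 3 array stood apart: its interquartile range was 3.74, while those of the remaining 11 arrays were 4.40 to 4.61. The replicate 1 arrays of all 4 groups deviated together from their group means, with correlations across probe sets of 0.37 to 0.85. The 7 measured hippocampal neuron genes lay between percentile 44.1 of mean level, for the granule cell gene Prox1, and 99.9, for the synaptic gene Snap25. No other tissue was compared, so these percentiles cannot test the tissue label. In the averaged genotype effect, which called 0.612% of all probe sets, 7 of 9 microglial markers passed the threshold in limma, higher in mutants. Summed linear levels of the microglial markers were 2557 to 2854 in control saline and 4790 to 5792 in mutant saline arrays. The 5 with the smallest adjusted p were Tyrobp (1.76), C1qb (1.17), C1qa (1.08), Laptm5 (0.82) and Ctss (0.91), as log2 differences. The astrocyte gene Gfap was higher by 1.62 (adjusted p = 0.00554 in limma), the 1 called of 4 measured astrocyte genes, whose median was 0.26. The CA1 neuron gene Wfs1 stood at -1.04 (adjusted p = 0.0082 in limma), the 1 called of 7 measured neuron genes. Of those 7, 2 stood above 0, and the median was -0.24. The part of these microglial, astrocyte and neuron differences in the values below was not tested.

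Sequence upstream of the start site is shown for Hba-a1, whose probe set carries the called change, and for its copy Hba-a2. It is also shown for the member that holds a CREB motif. RefSeq windows (GRCm38.p6) were at hand for 6 of the 9 genes, and none was at hand for Pecam1, Cdh5 or Vwf. The 250 bases before the start of Hba-a1, at chr11:32283422-32283671 on the plus strand, of its neighbouring copy Hba-a2, at chr11:32296242-32296491 on the plus strand, and of Flt1, at chr5:147726012-147726261 on the minus strand, are given 5′ to 3′. Capitals mark the letters GATAAG, a match to the binding motif of the erythroid factor GATA1, in the globin genes, and TGACGTCA, the full cAMP response element to which CREB binds, in Flt1.
Hba-a1: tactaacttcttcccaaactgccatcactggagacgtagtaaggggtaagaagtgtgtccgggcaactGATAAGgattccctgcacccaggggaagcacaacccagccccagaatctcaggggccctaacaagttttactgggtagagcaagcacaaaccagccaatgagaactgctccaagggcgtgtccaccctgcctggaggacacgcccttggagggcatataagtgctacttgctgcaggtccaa
Hba-a2: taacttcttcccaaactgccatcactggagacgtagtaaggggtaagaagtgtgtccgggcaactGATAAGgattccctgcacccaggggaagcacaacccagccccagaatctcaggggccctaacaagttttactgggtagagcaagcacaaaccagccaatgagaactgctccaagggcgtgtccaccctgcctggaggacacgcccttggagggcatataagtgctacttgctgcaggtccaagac
Flt1: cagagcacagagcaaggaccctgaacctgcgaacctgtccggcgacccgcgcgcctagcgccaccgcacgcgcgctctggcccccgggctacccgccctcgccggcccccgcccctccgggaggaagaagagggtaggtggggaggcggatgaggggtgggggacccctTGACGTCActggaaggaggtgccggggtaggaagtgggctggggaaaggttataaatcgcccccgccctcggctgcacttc

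The windows of the α-globin copies were identical in 247 of 247 compared bases once shifted by 3. The full element TGACGTCA, which reads the same on both strands and includes the half-site TGACG on each, lay 81 to 74 bases before the Flt1 start. It occurred in 506 of 32536 distinct windows of that length (1.56%), and the half-site on either strand in 17.9%. Of the 6 members with a window, Flt1 held it and the other 5 held neither form. GATAAG, on either strand, occurred in 6.42% of windows and, among members, in that of Hba-a1. A match describes letters and is no evidence of binding.

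The haemoglobin gene was the only member past the threshold in the averaged kainate effect. Whether it moved more than the vascular members was not tested. Hba-a1, an α chain of adult haemoglobin, rose 1.45-fold after kainate when the effect was averaged over genotypes (log2 change 0.53, SE 0.10, adjusted p = 0.0372 in limma, 6 against 6 arrays). In control saline arrays it stood at 10.25, 10.41 and 10.34, and in control kainate arrays at 10.60, 10.56 and 10.71. In mutant saline arrays it stood at 10.45, 9.94 and 10.41, and in mutant kainate arrays at 10.82, 11.17 and 11.12. All 6 kainate arrays lay above all 6 saline arrays, a separation that 0.628% of tested probe sets showed in that direction. The lowest value of all was that of mutant saline replicate 2.

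The averaged kainate effect called 0.942% of all probe sets, and Hba-a1 was the 1 called among 12 members. The call was marginal. It held without control kainate replicate 1, mutant saline replicate 1 or mutant kainate replicate 1, and ended without any of the other 9 arrays, with adjusted p of up to 0.114 and log2 changes between 0.45 and 0.59. Within replicates 2 and 3 the change was 0.62 (adjusted p = 0.028 in limma). At replicate number 1 the kainate array exceeded the saline array by 0.35 in controls and by 0.38 in mutants.

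**Figure D1:**
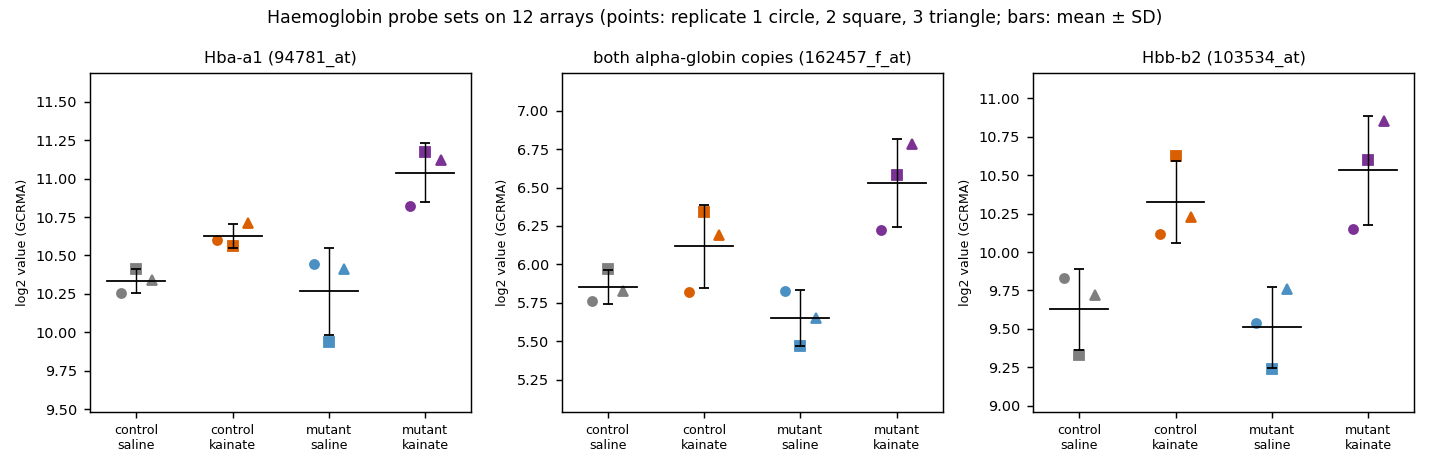
Log2 GCRMA values of 3 haemoglobin probe sets on 12 arrays by group, as points by replicate number with the mean and SD of 3 arrays. For Hba-a1 the 6 kainate arrays sit between 10.56 and 11.17, above the 6 saline arrays at 9.94 to 10.45.

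Taken by genotype, the change of Hba-a1 did not pass. In controls it was 0.29 (SE 0.14, adjusted p = 0.709 in limma) and in mutants 0.77 (SE 0.14, adjusted p = 0.0642). Kainate arrays lay above saline arrays in both genotypes, as for 2.29% of all probe sets in controls and 4.98% in mutants. The difference between these responses, 0.48 (SE 0.20), did not pass either (adjusted p = 0.939). Under saline the mutants stood at -0.07 from controls (SE 0.14) and under kainate at 0.41 (SE 0.14, adjusted p = 0.53). Under kainate the mutant arrays lay above all control arrays, as 4.03% of probe sets did.

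A further probe set was annotated to both α-globin copies and so was no member. Its control saline arrays read 5.76, 5.97 and 5.83, and its control kainate arrays 5.82, 6.34 and 6.19, with replicate 1 of the latter inside the saline range. Its mutant saline arrays read 5.83, 5.47 and 5.65, and its mutant kainate arrays 6.22, 6.58 and 6.78, without overlap, as for 4.98% of all probe sets. Its averaged kainate change was 0.57 (SE 0.12) and did not pass in limma (adjusted p = 0.0584). It carries both symbols, and how far either probe set separates Hba-a1 from Hba-a2 was not tested.

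The β-globin probe set annotated to Hbb-b2 rose 1.81-fold, averaged over genotypes (0.86, SE 0.15, adjusted p = 0.0263 in limma). It stood at 9.83, 9.33 and 9.72 in control saline, and at 10.12, 10.62 and 10.23 in control kainate arrays. In mutants it stood at 9.54, 9.24 and 9.76 under saline, and at 10.15, 10.60 and 10.85 under kainate. Again no kainate array overlapped a saline array, as for 0.628% of all probe sets in that direction. Adult β-globin genes are close copies, so the assignment to Hbb-b2 is uncertain and was not tested. Its call ended in 7 of 21 alternatives, with adjusted p of up to 0.0848 without mutant kainate replicate 2.

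Of 19 listed haemoglobin and erythroid genes 11 were measured, and Hbb-b2 was the 1 past the threshold, in the averaged kainate effect. Of all probe sets, 0.942% were called in that effect. The list had a median averaged kainate change of 0.04, against 0.03 over all tested probe sets. The embryonic globins Hbb-bh1 and Hba-x lay at percentiles 3.74 and 9.23 of mean level, the erythroid transcription factor gene Gata1 at 21.2 and Alas2, the erythroid enzyme of haem synthesis, at 30.5. Alas2 changed by 0.04 in controls and 0.19 in mutants, neither past the threshold. The summed linear level of the list, whose brightest genes were Hbb-b2 and the red cell enzyme gene Bpgm, ran from 1389 to 1627 in control saline, 1793 to 2305 in control kainate, 1348 to 1617 in mutant saline and 2032 to 2577 in mutant kainate arrays.

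Markers of other blood cells were also read. The 8 measured of 10 listed genes of platelets and blood leukocytes had summed linear levels of 74.9 to 89.4 in control saline, 82.2 to 108.6 in control kainate, 79.2 to 87.0 in mutant saline and 80.4 to 83.5 in mutant kainate arrays. None passed in any of the 7 comparisons in limma. Only Gp9, at percentile 56.0 of mean level, lay above the median level, and Pf4 lay lowest at 3.94. Such low levels limit what these sums can show. The amount of blood in the tissue was not measured, and its part in the haemoglobin values was not tested.

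The genes whose profiles over the 12 arrays were most like that of Hba-a1 were Rasl11b (Pearson's r 0.91), a Ras-like protein, Cebpd (0.90), a C/EBP transcription factor, Cdkn1a (0.86), a cell cycle inhibitor, Dnajb9 (0.85), a chaperone of the endoplasmic reticulum, and Blnk (0.85), a B cell adaptor. They have the highest r among probe sets with 1 symbol, and are given as a description, over arrays that share treatment groups.

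None of the 11 vascular probe sets passed the threshold in any of the 7 comparisons. Those comparisons were the kainate effect in controls, in mutants and averaged, the genotype effect under saline, under kainate and averaged, and the difference between the kainate responses. At an unadjusted p under 0.05 in limma, there were 2 of 11 for kainate in controls (7.37% of all probe sets), 2 in mutants (6.28%) and 3 averaged (11.9%). There was 1 for genotype under kainate (4.96%) and 1 for genotype averaged (5.98%), and there were 0 for genotype under saline (2.57%) and for the difference in response (0.861%). The share of all probe sets past the adjusted threshold was 0.33% for kainate in controls, 0.298% for kainate in mutants, 0% for the difference in response, 0.137% for genotype under saline, 0.354% for genotype under kainate and 0.612% for genotype averaged. With the replicate number as a block, the probe sets called went from 17 to 30 for genotype under saline and from 44 to 67 for genotype under kainate, with no vascular member among them.

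**Figure D2:**
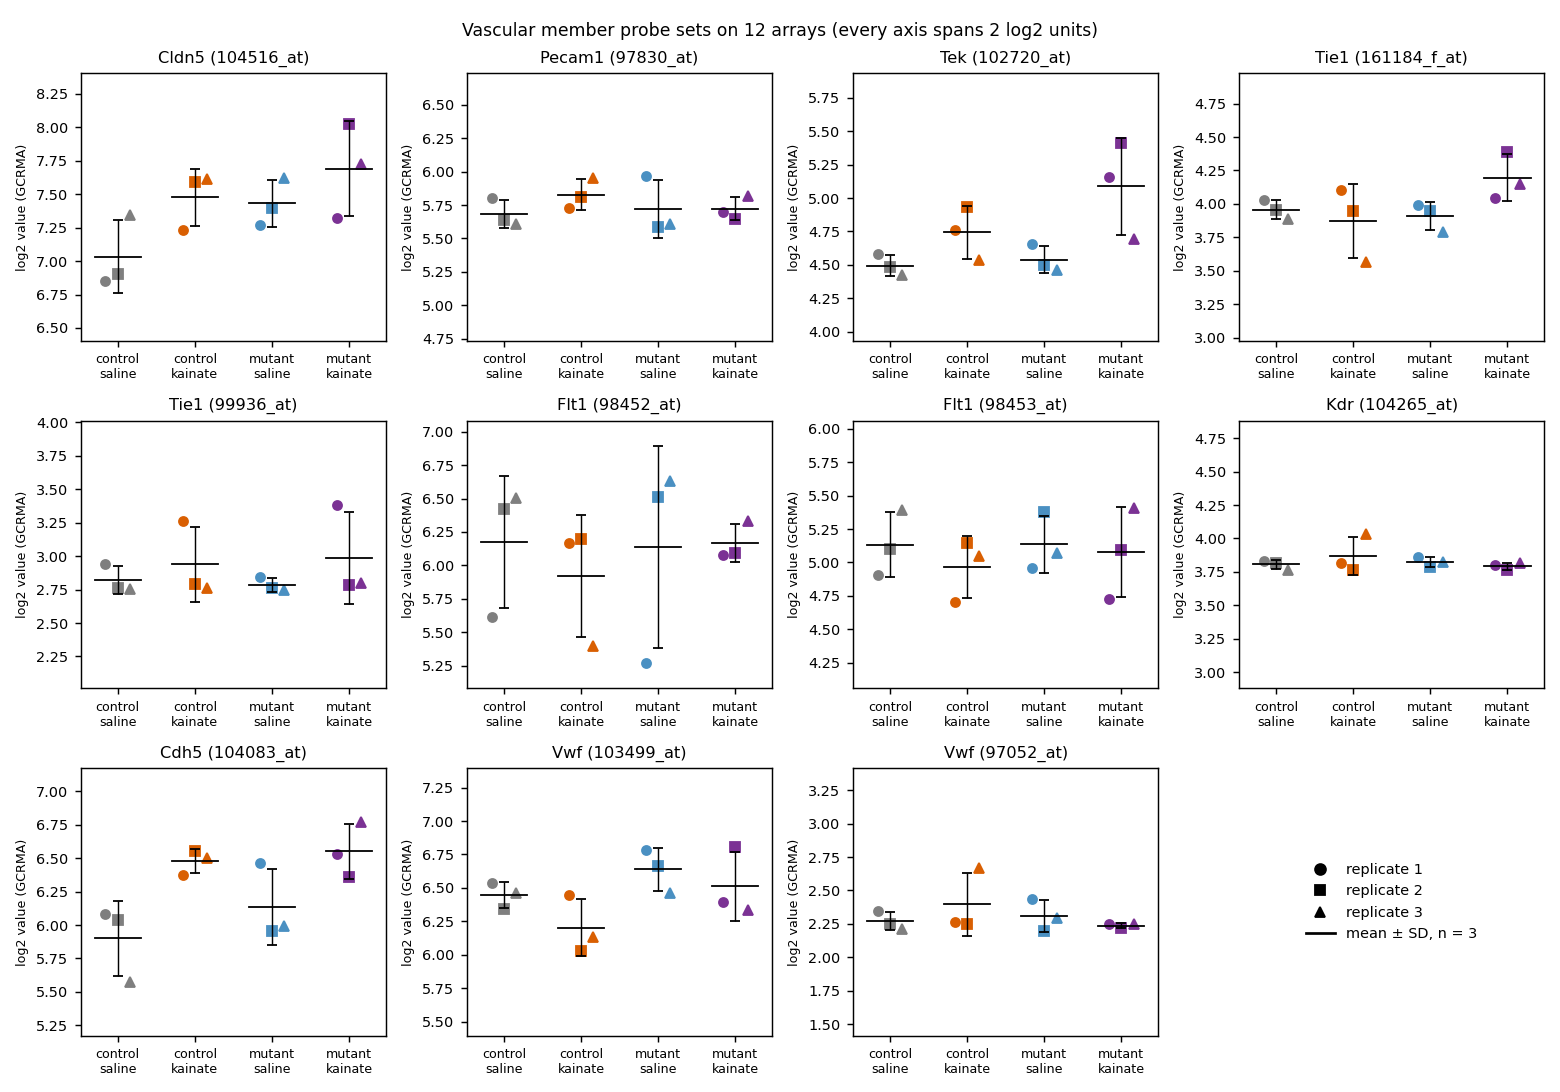
Log2 GCRMA values of the 11 vascular probe sets on 12 arrays by group, with mean and SD of 3 arrays and every axis spanning 2 log2 units. For Cdh5 the control kainate arrays, at 6.38 to 6.55, lie above the control saline arrays, at 5.58 to 6.08.

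Among junction genes, Cdh5 had the largest kainate difference of the vascular members in controls and in the average. Cdh5 encodes VE-cadherin, the adhesion protein of endothelial adherens junctions. It stood at 6.08, 6.04 and 5.58 in control saline and at 6.38, 6.55 and 6.50 in control kainate arrays, without overlap, as for 2.29% of all probe sets. In mutants it stood at 6.47, 5.95 and 5.99 under saline and at 6.53, 6.36 and 6.77 under kainate, where replicate 1 of the saline group lay within the kainate range. In limma the difference was 0.58 in controls (SE 0.17, adjusted p = 0.458) and 0.42 in mutants (SE 0.17, adjusted p = 0.744). Over both genotypes it came to 0.50 (SE 0.12, adjusted p = 0.109). The averaged difference passed within replicates 2 and 3 (0.65, adjusted p = 0.038), without mutant saline replicate 1 (0.58, adjusted p = 0.0432) and with either form of array weights.

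Cldn5 encodes claudin 5, the main claudin of the blood-brain barrier's tight junctions. Control saline arrays read 6.85, 6.91 and 7.34, and control kainate arrays 7.23, 7.59 and 7.61. Mutant saline arrays read 7.27, 7.40 and 7.62, and mutant kainate arrays 7.32, 8.03 and 7.73. Group means were lowest in control saline, at 7.03 ± 0.27 (SD, n = 3), then 7.43 ± 0.18 in mutant saline, 7.48 ± 0.21 in control kainate and 7.69 ± 0.35 in mutant kainate. Each group overlapped its neighbours in that order. The averaged kainate difference was 0.35 (SE 0.14, adjusted p = 0.325 in limma) and the averaged genotype difference 0.31 (SE 0.14, adjusted p = 0.63).

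The profiles most like that of Cldn5, the vascular probe set with the highest mean, belonged to the granin Chgb (Pearson's r 0.90 over 12 arrays), the polyamine acetyltransferase Sat1 (0.89), the helix-loop-helix inhibitor Id2 (0.89), the kinase gene Plk3 (0.88) and the carboxypeptidase gene Cpe (0.86). No other vascular member was among them.

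Pecam1, an adhesion molecule at endothelial cell contacts that is also found on platelets and leukocytes, varied little between groups. Its group means were 5.68 ± 0.10 in control saline, 5.83 ± 0.11 in control kainate, 5.72 ± 0.22 in mutant saline and 5.72 ± 0.09 in mutant kainate arrays (SD, n = 3). The kainate difference was 0.15 in controls (SE 0.12) and 0.00 in mutants (SE 0.12), within the spread between pools.

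Of the angiopoietin receptors, Tek, also called Tie2, gave the larger difference. Control saline arrays stood at 4.58, 4.49 and 4.42, and control kainate arrays at 4.76, 4.93 and 4.54. Mutant saline arrays stood at 4.66, 4.50 and 4.47, and mutant kainate arrays at 5.16, 5.41 and 4.69. In mutants the kainate arrays lay above the saline arrays, as for 4.98% of all probe sets, with replicate 3 only just above. In controls replicate 3 of the kainate group lay within the saline range. In limma the kainate difference was 0.25 in controls (SE 0.17, adjusted p = 0.729) and 0.55 in mutants (SE 0.17, adjusted p = 0.442). Over both genotypes it came to 0.40 (SE 0.12, adjusted p = 0.171). That between the responses was 0.30 (SE 0.23, adjusted p = 0.939).

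Tie1, the orphan relative of Tek that modulates its signalling, was read by a pair of probe sets that disagreed by array. The brighter one, at percentile 46.0 of mean level, had group means of 3.96 ± 0.07 in control saline, 3.87 ± 0.28 in control kainate, 3.91 ± 0.10 in mutant saline and 4.19 ± 0.18 in mutant kainate arrays (SD, n = 3). Its mutant kainate arrays, at 4.04, 4.39 and 4.15, lay above the mutant saline arrays, at 3.99, 3.94 and 3.79, as for 4.98% of all probe sets. The difference of 0.29 (SE 0.14) did not pass in limma (adjusted p = 0.852). The dimmer one, at percentile 24.9, read 2.75 to 2.94 except on the replicate 1 kainate arrays, which read 3.26 in controls and 3.38 in mutants. Its kainate differences of 0.12 and 0.20 (SE 0.17 each) rested on those arrays.

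**Figure D3:**
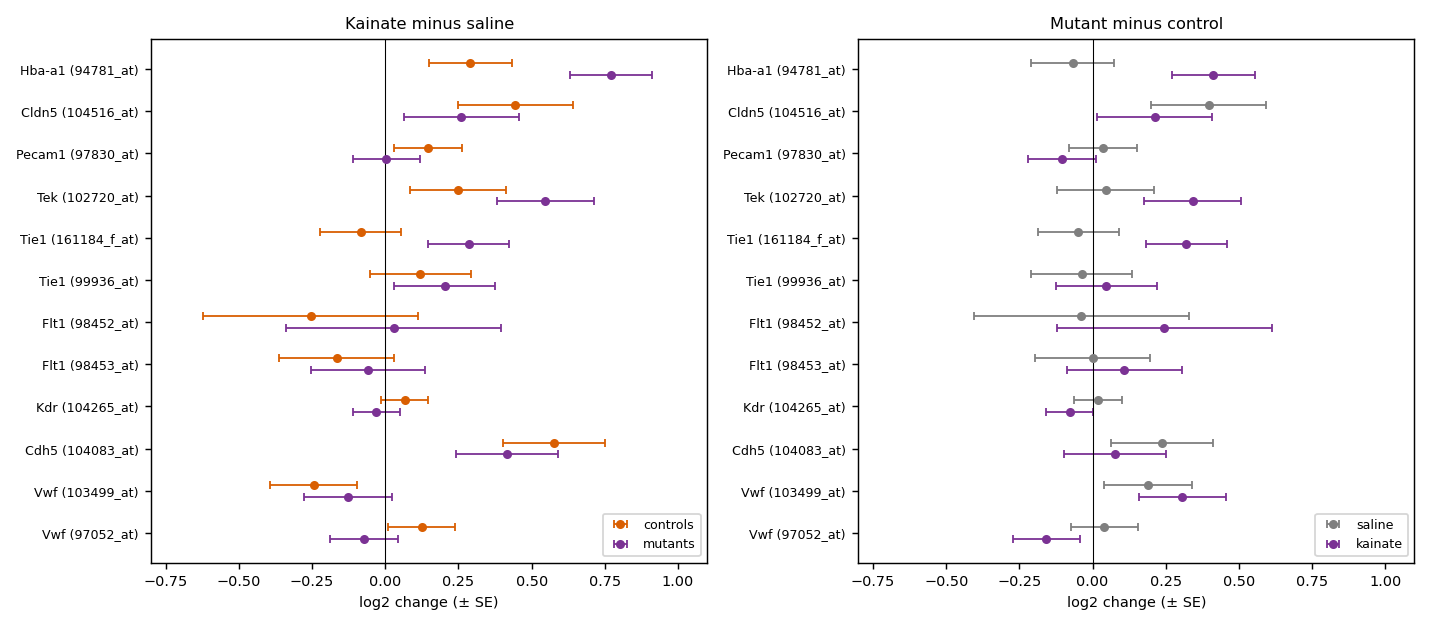
Fitted log2 changes with their standard errors for the 12 member probe sets, kainate minus saline by genotype on the left and mutant minus control by treatment on the right. Hba-a1 in mutants, at 0.77, is the change farthest from 0 on the left, and Cdh5 is at 0.58 in controls.

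The VEGF receptor genes showed no change past the threshold. Flt1 encodes VEGFR-1, which binds VEGF tightly and in its soluble form acts as a decoy. It is the member whose window printed above holds a full cAMP response element. Its brighter probe set stood at 5.61, 6.42 and 6.50 in control saline, 6.17, 6.20 and 5.40 in control kainate, 5.27, 6.51 and 6.63 in mutant saline and 6.08, 6.09 and 6.33 in mutant kainate arrays. Both saline groups had their low array at replicate 1, and the control kainate group at replicate 3. Mutants differed from controls by -0.04 under saline and by 0.25 under kainate (SE 0.37 each), so differences of this size lay well within the spread.

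The dimmer Flt1 probe set had group means of 5.13 ± 0.24, 4.97 ± 0.23, 5.14 ± 0.22 and 5.08 ± 0.34 in control saline, control kainate, mutant saline and mutant kainate arrays (SD, n = 3). Its genotype differences were 0.00 under saline and 0.11 under kainate (SE 0.20 each). Kdr, the gene of VEGFR-2, the main signalling receptor for VEGF, lay at percentile 43.9 of mean level. It stood between 3.76 and 3.86 on 11 arrays and at 4.03 on control kainate replicate 3, the array with the narrow interquartile range. Its group means differed most for genotype under kainate, by -0.08 (SE 0.08).

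Vwf encodes von Willebrand factor, the platelet-binding protein stored by endothelial cells. The brighter of its probe sets stood at 6.54, 6.34 and 6.46 in control saline, 6.45, 6.03 and 6.13 in control kainate, 6.78, 6.66 and 6.46 in mutant saline and 6.39, 6.80 and 6.33 in mutant kainate arrays. Its sign after kainate was opposite to that of Cdh5 and Tek, at -0.24 in controls (SE 0.15), -0.13 in mutants (SE 0.15) and -0.19 averaged (SE 0.11, adjusted p = 0.605 in limma). The averaged genotype difference was 0.25 (SE 0.11, adjusted p = 0.63). The dimmer Vwf probe set, at percentile 13.1, read 2.20 to 2.44 on 11 arrays and 2.67 on control kainate replicate 3. Its kainate differences were 0.13 in controls and -0.07 in mutants (SE 0.11 each), and 0.03 averaged, so the sign of the brighter probe set was not shared throughout. Its mutant kainate arrays lay below its control kainate arrays, as 4.97% of probe sets did, with a difference of -0.16 (SE 0.11, adjusted p = 0.53). The nearest arrays of the groups both read 2.25, and without control kainate replicate 3 the difference was -0.02.

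Over the vascular members the direction was mixed. In the averaged kainate effect 8 of 11 probe sets stood above 0, with a median of 0.07 and a range from -0.19 to 0.50, while 63.6% of all tested probe sets stood above 0 with a median of 0.03. In the averaged genotype effect 8 of 11 stood above 0 with a median of 0.10, against 33.8% and -0.06 over all tested probe sets. Those references turn with level: over probe sets above the median level, which hold 7 of the 11, the median of all was -0.05 for kainate and 0.04 for genotype, and that of the 7 was 0.07 and 0.16. Without mutant saline replicate 2, the genotype median of the 11 was 0.01. Groups did not overlap, with kainate higher, for 1 of 11 in controls (2.29% of all probe sets) and 2 of 11 in mutants (4.98%). The kainate comparisons and genotype comparisons share arrays, so they are not separate evidence.

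Of 11 listed VEGF, angiopoietin and co-receptor genes 10 were measured and 0 passed in any comparison in limma. The VEGF ligand gene Vegfb, for example, changed by 0.04 in controls and 0.09 in mutants after kainate, and the receptor phosphatase gene Ptprb, which opposes Tek, by -0.20 and -0.30. Of 34 other endothelial and blood-brain barrier genes 23 were measured, 0 passed in any comparison, and the median averaged kainate change was 0.01. Within that list Cd93 stood at 0.48 and the transcription factor gene Sox18 at -0.77, neither past the threshold. Of 13 mural cell genes, which mark pericytes and smooth muscle, 11 were measured and 0 passed. Their summed linear level ran from 440 to 575 in control saline, 461 to 588 in control kainate, 537 to 627 in mutant saline and 635 to 721 in mutant kainate arrays. That sum is weighted to the brightest gene, Vtn. For genotype under kainate 5 of the 11 genes stood above 0, with a median of -0.05. Vtn stood at 0.49 and Acta2 at 0.55, neither past the threshold, so the sums do not describe the list as a whole.

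A list of endothelial activation and shear-responsive genes included 2 that rose. Of 8 listed genes 7 were measured, and in the averaged kainate effect Klf2 and Edn1 passed while the other 5 did not (median 0.12). That effect called 0.942% of all probe sets. Both called probe sets lay below the median level, Klf2 at percentile 45.0 of mean level and Edn1 at 47.8. Klf2, a shear-responsive endothelial transcription factor that is also expressed by other cells, rose 1.90-fold (0.93, SE 0.16, adjusted p = 0.02 in limma). It stood at 3.32, 3.41 and 3.42 in control saline and 4.01, 4.54 and 3.83 in control kainate arrays, and at 3.56, 3.49 and 3.47 in mutant saline and 4.29, 5.14 and 4.42 in mutant kainate arrays. No kainate array overlapped a saline array, as for 0.628% of all probe sets in that direction.

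Edn1, the gene of the vasoconstrictor endothelin 1, rose 1.35-fold (0.43, SE 0.08, adjusted p = 0.037 in limma), with kainate arrays at 4.17 to 4.58 and saline arrays at 3.78 to 4.06. Such a separation was shown by 0.628% of all probe sets. Klf2 lost its call in 6 of 20 alternatives (adjusted p of up to 0.0787, with quantile normalised values) and Edn1 in 9 of 20 (up to 0.121, without control saline replicate 3). The leukocyte adhesion genes Icam1, Vcam1, Sele and Selp did not pass in any comparison. Their averaged kainate changes were 0.12, -0.02, 0.04 and 0.02.

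Neighbouring tissue was read from marker lists. The choroid plexus list, of which 5 of 8 genes were measured, had summed linear levels of 2364 to 3716 in control saline, 1099 to 2658 in control kainate, 1216 to 4520 in mutant saline and 1540 to 3670 in mutant kainate arrays. None of its members passed. The list of meninges and fibroblasts ran from 6144 to 9402 over all arrays, and 0 of 6 passed. The part of these tissues in the vascular values was not tested.

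**Figure D4:**
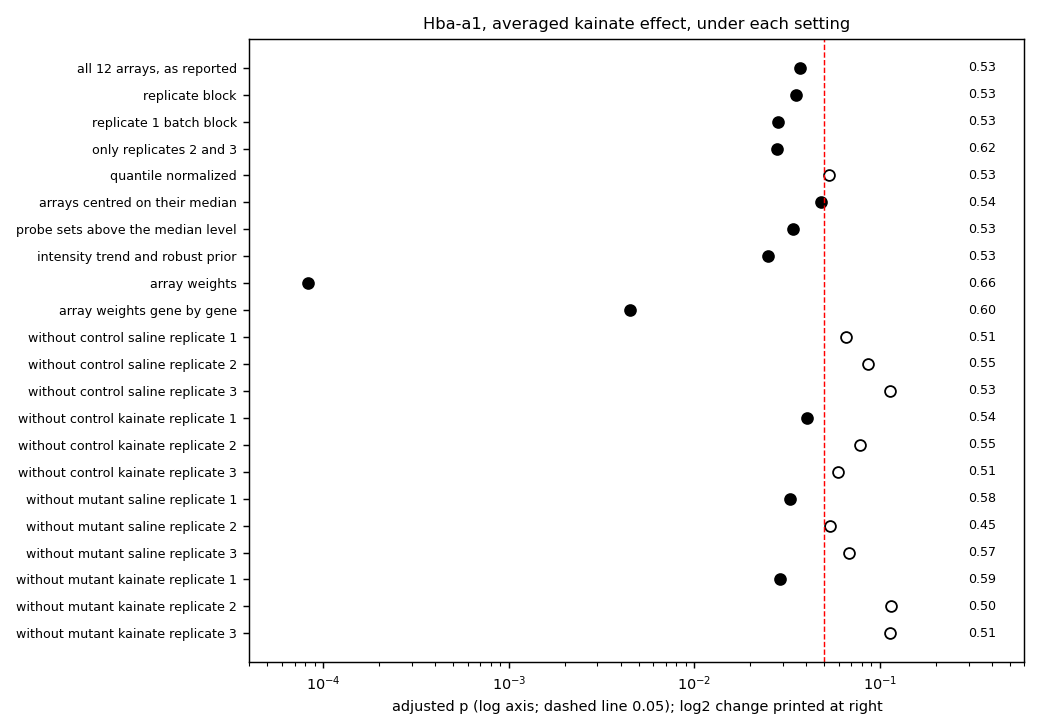
Adjusted p of the averaged kainate effect on Hba-a1 under each processing setting, on a log axis, with the log2 change printed at the right. Filled points are past 0.05, which 11 of 21 alternatives reached, and the log2 change stays between 0.45 and 0.66.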

How the data were processed

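The authors deposited log2 values from GCRMA, run in R 2.4.1, per the submitters' processing notes. GCRMA corrects background from probe composition, quantile-normalises and gives 1 value per probe set. Its version, and whether the arrays were normalised as 1 set, is not given in the sources used here. Values ran from -0.783 to 14.35. The number of arrays limits the precision.

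Of 12488 probe sets, 66 controls were left out. Platform annotation gave 1 symbol to 10833, several to 396 and none to 1193. Of the 10833, 10817 matched RefSeq (GRCm38.p6) by Entrez identifier.

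With limma 3.58.1 in R 4.3.3, 4 group means were estimated from the 12 arrays (8 residual and 2.48 prior degrees of freedom). The code was checked with simulated data of known changes. Tests were two-sided, with Benjamini-Hochberg adjustment over 12422 probe sets and a threshold of 0.05. A call or pass means an adjusted p under it. Errors of changes are standard errors (SE).

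Every member was named. Of 12 marker lists, each gene was represented by its brightest probe set, and up to 5 genes past the threshold were named per list and comparison. For Hba-a1 and the brightest vascular probe set the 5 genes with the highest r were named. Other list genes given as examples, and the probe set shared by the α-globin copies, were chosen after their values were seen. Members and lists were chosen with earlier results of these data known.

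Deviations of same-numbered arrays had r of 0.63, 0.41 and 0.45 for saline with kainate in mutants, and 0.37, 0.40 and -0.01 in controls. Between genotypes within treatment r was 0.31 to 0.85. Some arrays were as alike across numbers, with 0.51 for mutant saline replicate 2 and mutant kainate replicate 3. Deviations from a group mean cancel out within the group. Where replicate 1 stands apart, replicates 2 and 3 therefore correlate whatever their number, and these r cannot show that they are paired. The labels give no source of pairing beyond the number, and do not say that pools of 1 group were prepared apart, so p-values measure the spread between these pools.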

Additional observations from a re-analysis of the deposited data

How the results depend on the processing

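Of 453 recomputed values (members called, Hba-a1 and the vascular median, in 7 comparisons), 365 kept their direction and side of the threshold or moved by less than the spread between replicates. Of these, 129 were counts of members called that stayed equal or close. Some values could not move: leaving out a mutant array keeps log2 changes within controls, and the replicate block keeps every log2 change. The tally therefore does not measure robustness. With the replicate block the averaged kainate change of Hba-a1 was 0.53 (adjusted p = 0.0352), and the block changed no call of a member. Quantile normalisation ended the call of Hba-a1 (0.53, adjusted p = 0.0534; 0 members called), and the cause was not tested. In mutants the kainate change of Hba-a1 passed with an intensity trend and robust prior (0.77, adjusted p = 0.0405; 1 member called).

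Default array weights ran from 0.0204 to 75.2 and stopped before convergence, so their calls rest on a few arrays. Of 12 members and 12422 probe sets, they called 3 and 3347 for kainate in controls, 6 and 3182 in mutants, 8 and 4276 averaged, 1 and 1204 in the difference of responses, 7 and 8537 for genotype under saline and 2 and 2699 averaged. The Hba-a1 changes were 1.13 in mutants, 0.95 in the difference and -0.45 for genotype under saline. Weights fitted gene by gene, an alternative chosen after seeing the data, called 3 members for kainate in mutants (Hba-a1 1.01), with 1619 probe sets in all, and 3 averaged, with 2036. Replicates 2 and 3 alone called 2 members in the averaged kainate effect, with 778 probe sets in all.

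Vascular medians moved as follows. For kainate in controls the median was 0.038 with quantile normalisation and 0.0816 with gene by gene weights. For kainate in mutants it was 0.0761 with median centring, 0.12 with default weights and 0.13 with gene by gene weights, and for the averaged effect 0.14 with either weights. For the difference in response it was 0.0163 with replicates 2 and 3, 0.00175 with quantile normalisation, 0.16 with centring, 0.0216 with default and 0.0139 with gene by gene weights. For genotype it was -0.00452 under saline with default weights. Under kainate it was 0.15 with replicates 2 and 3, 0.0725 with quantile normalisation, 0.18 with centring and 0.21 with probe sets above the median level, where it was 0.16 averaged.

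Leaving out 1 array gave 0 to 2 members called for averaged kainate, 0 to 1 for kainate in mutants and 0 elsewhere. Hba-a1 then ran from 0.45 to 0.59 averaged and from 0.61 to 0.88 in mutants, and for genotype under saline from -0.16 to 0.10, the last without mutant saline replicate 2. The vascular median ran from 0.0692 to 0.16 for kainate in controls, -0.0392 to 0.19 in mutants, 0.0404 to 0.12 averaged, -0.0575 to 0.11 for the difference, -0.000944 to 0.0793 for genotype under saline, 0.0883 to 0.28 under kainate and 0.0112 to 0.16 averaged.

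Counts over all probe sets (41 for kainate in controls, 37 in mutants, 117 averaged, 0 for the difference, 17, 44 and 76 for genotype under saline, under kainate and averaged) were 48, 44, 245, 0, 30, 67 and 124 with the replicate block. Over all alternatives they ran from 22 to 3347, 26 to 3182, 52 to 4276, 0 to 1204, 2 to 8537, 5 to 713 and 41 to 2699, the highest under default array weights. Probe sets of low level carry little signal above background, which limits what the dimmer probe sets of Tie1 and Vwf, and those of Klf2 and Edn1, can show.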
